A study of Mus musculus with 8 samples.

Results

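The 34 genes described here encode the enzymes that make nucleotides and the folate enzymes that supply them with one-carbon units. They were taken as a given list of gene symbols, matched through Ensembl mouse identifiers to GENCODE M21, and all 34 were found among the 17488 genes of the deposited table. They were followed in whole neuroblastomas of homozygous TH-MYCN mice, which carry a human MYCN transgene driven by a tyrosine hydroxylase promoter, so that tumours arise in the sympathoadrenal lineage. All 8 animals carried the transgene and were treated at about 6 weeks of age, once ultrasound showed a tumour of 200 to 300 mm3 in the abdomen. In 4 animals, 2 doses of 5 mg/kg panobinostat, an inhibitor of histone deacetylases, were given 24 h apart, and the other 4 received vehicle on the same schedule. The harvest followed 4 h after the second dose, and RNA of the entire tumour, tumour cells and stroma together, gave 1 library per animal. In such bulk samples, fewer cells of a type and less RNA per cell cannot be told apart.

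Purines are built stepwise on phosphoribosyl pyrophosphate (PRPP), whereas pyrimidines are built as a ring that is then joined to PRPP. Ribonucleotide reductase turns ribonucleotides into the deoxynucleotides that DNA synthesis consumes, and the folate cycle passes on one-carbon units, taken largely from serine, to the purine ring and to thymidylate. Many of these genes are known targets of MYC family proteins and are highly expressed in dividing cells, MYCN-driven neuroblastoma among them.

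Read totals were 22055658 to 23830026 in vehicle libraries and 18664066 to 22235545 in panobinostat libraries, and 1 CPM, the depth-scaled count, was worth 19.3 to 22.6 reads. All 34 genes passed the filter of 1 CPM in 4 libraries, with 355 reads (Rrm2b) to 9272 reads (Rrm1) per library. Values are deposited log2 CPM, on which a difference of 1 is a doubling. They are given for libraries 1 to 4 in that order, and a change is the panobinostat mean minus the vehicle mean (n = 4 in each group) with its standard error (SE) from limma. Defining markers of the labelled tumour were present in every library: Th measured 7.48 to 8.87 with vehicle and 8.26 to 8.61 with panobinostat, and Chga 7.15 to 7.84 and 7.60 to 8.40. Of 10 sympathoadrenal markers, 7 were lower with panobinostat, and the summed level of the 10 went from 1983 to 2967 CPM to 1032 to 1179 CPM. Th, Dbh and Chga had no call. Of 16157 genes tested, limma with Benjamini-Hochberg adjustment called 63.7% at an adjusted p under 0.05.

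With panobinostat, 23 of the 34 genes were lower (67.6%, against 32.4% of all genes tested) and 1, Prps2, was higher (2.94%, against 31.2%), while 10 had no call. Their median change was -0.63, against -0.02 over all genes tested, and 31 of the 34 had a change below 0. The largest decreases were in ribonucleotide reductase subunit M2 (Rrm2), mitochondrial formate synthesis (Mthfd1l), CTP synthetase (Ctps), ribonucleotide reductase subunit M1 (Rrm1), dUTPase (Dut) and Cad. In 24 genes every panobinostat library lay under every vehicle library (70.6%, against 31.2% of all genes tested), and in 2 genes every panobinostat library lay above (28.5% of all genes tested). Added up, the 34 genes took 4030 to 5352 CPM of the vehicle libraries and 2469 to 2809 CPM of the panobinostat libraries. Among vehicle libraries the sum was lowest in library 3 and highest in library 4, and these ranges of the groups did not overlap.

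**Figure D1:**
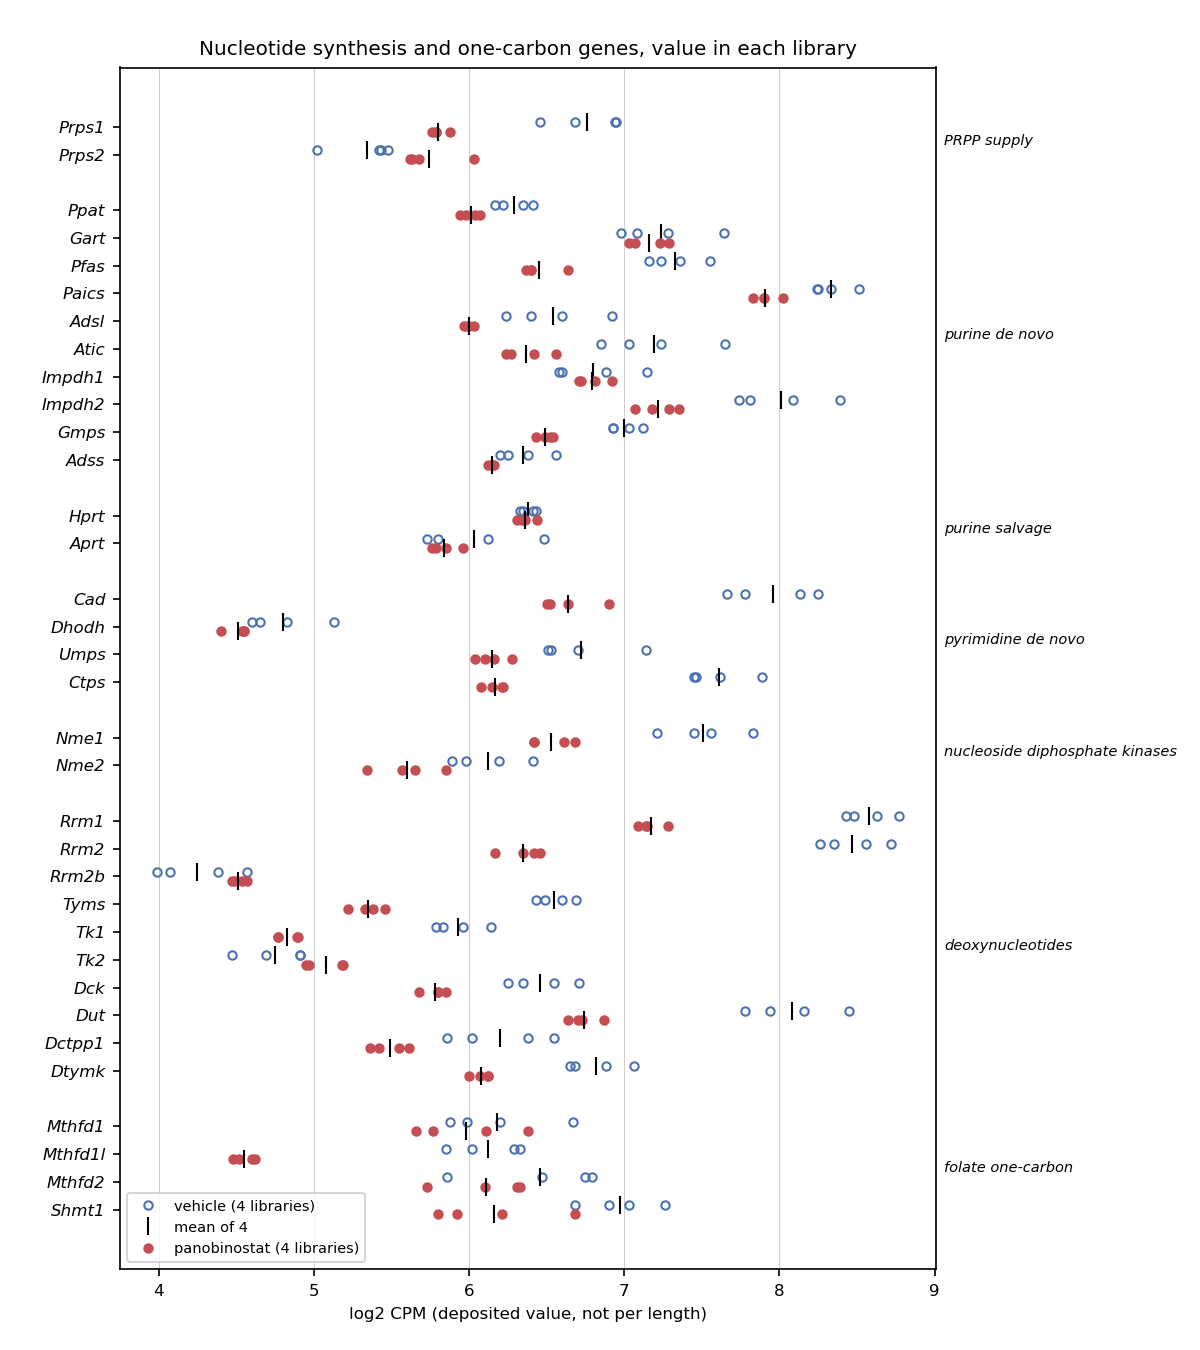
Each point is the log2 CPM of one of the 34 genes (rows, by role) in 1 library, open for vehicle and filled for panobinostat, and each vertical line is the mean of 4. The filled points lie left of all open points for 24 genes, most widely for Rrm2, and right of them for Prps2 and Tk2.

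Genes of other cell types moved in the same libraries. All 10 proliferation markers were lower with panobinostat (median -1.33; summed level 3527 to 4376 CPM with vehicle and 1420 to 1774 CPM with panobinostat). Macrophage markers were higher in 7 of 8 (468 to 964 CPM and 2317 to 4177 CPM) and fibroblast and mural markers in 8 of 8 (1398 to 4656 CPM and 8047 to 14520 CPM). Schwann cell markers were higher in 5 of 6 (15.6 to 49.0 CPM and 49.5 to 261 CPM). Adrenal cortex markers summed to 8.72 to 11.2 CPM and 38.6 to 2726 CPM, and liver markers to 6.80 to 61.0 CPM and 144 to 7614 CPM, both highest in panobinostat library 4. In panobinostat libraries 1 and 2 most of the liver sum was Cyp2e1 (log2 CPM 6.92 and 7.12), with Alb at 4.03 and 3.22. The same held in vehicle library 1 (Cyp2e1 5.86, Alb 0.80). Kidney markers reached 648 CPM in panobinostat library 3 and at most 4.82 CPM in every other library. Pancreas markers reached 1299 CPM in panobinostat library 4 and 196 CPM in library 2. They were at 14 and 16.8 CPM in panobinostat libraries 1 and 3, and at 6.22 to 12.6 CPM with vehicle. Adipocyte markers rose in 4 of 4 (8.5 to 171 CPM and 377 to 704 CPM), and 1 of 5 endothelial markers was higher. Nr5a1 (adrenal cortex), Slc34a1 (kidney) and Lep (adipocyte) were at 0 reads in a vehicle library. These shifts accompany every change given here, and their part in the results was not tested.

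The supply of PRPP rests on PRPP synthetases 1 and 2, which were on opposite sides of the test. Prps1 (ENSMUSG00000031432, chrX:140456613-140476140, plus strand, mm10) measured 6.68, 6.95, 6.46 and 6.94 with vehicle and 5.76, 5.79, 5.79 and 5.88 with panobinostat. Its groups stood well apart, and it fell by 0.95 (SE 0.12, adjusted p = 1.26e-04) to 51.7% of the vehicle level. Prps2 (ENSMUSG00000025742, chrX:167346322-167382749, minus strand) measured 5.42, 5.48, 5.02 and 5.43 with vehicle and 5.63, 6.03, 5.68 and 5.62 with panobinostat. These groups did not overlap either, but the gap between them was narrow. Prps2 rose by 0.40 (SE 0.14, adjusted p = 0.0302), but it did not pass without vehicle library 3 (0.30, adjusted p = 0.0624), panobinostat library 2 (0.31, 0.0888) or panobinostat library 3 (0.42, 0.0548), and with each library centred on its median (0.29, 0.0833). Of the sum of both genes per transcript length, Prps2 held 16.6% ± 1.06 with vehicle and 33.8% ± 3.38 with panobinostat (SD, n = 4).

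The promoters of these genes are shown because the genes changed in opposite directions. Each is a RefSeq window (build GRCm38.p6) from 250 bases before to 50 bases after a RefSeq start site, 5′ to 3′ on the gene's strand. That site can differ from the gene bounds given here. That of Prps1 is chrX:140456353-140456652 on the plus strand and that of Prps2 is chrX:167382700-167382999 on the minus strand. Capitals mark matches on either strand to CACGTG (the E-box bound by MYC and MAX), to CCAAT, or to TTTCGCGC, TTTGGCGC, TTTCCCGC or TTTGCCGC (spellings of the E2F site).
Prps1: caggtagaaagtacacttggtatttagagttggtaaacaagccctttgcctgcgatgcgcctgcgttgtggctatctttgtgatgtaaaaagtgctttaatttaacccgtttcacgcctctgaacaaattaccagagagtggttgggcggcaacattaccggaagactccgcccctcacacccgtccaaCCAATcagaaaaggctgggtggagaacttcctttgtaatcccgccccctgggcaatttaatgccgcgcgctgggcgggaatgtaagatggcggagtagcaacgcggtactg
Prps2: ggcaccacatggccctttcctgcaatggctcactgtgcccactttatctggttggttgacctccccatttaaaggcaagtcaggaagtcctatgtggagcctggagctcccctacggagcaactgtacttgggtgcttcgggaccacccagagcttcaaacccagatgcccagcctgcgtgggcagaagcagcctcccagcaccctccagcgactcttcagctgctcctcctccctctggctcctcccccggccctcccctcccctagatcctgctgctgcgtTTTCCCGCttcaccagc
The Prps1 window holds a CCAAT match upstream of the start, and the Prps2 window an E2F match within its first transcribed bases.

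De novo purine synthesis fell in 7 of 10 genes (70%, against 32.4% of all genes tested), and the other 3 (Gart, Impdh1 and Adss) had no call. The median change of the 10 was -0.46, none of them was halved, and their summed level went from 1389 to 1793 CPM to 1042 to 1169 CPM. Along the path from PRPP to inosine monophosphate (IMP), the committing enzyme Ppat changed least among the called genes. It measured 6.22, 6.35, 6.17 and 6.41 with vehicle and 6.04, 5.94, 6.07 and 5.98 with panobinostat, groups that were close but apart (-0.28, SE 0.09, adjusted p = 0.0217). The Ppat call was lost under 2 other scalings and without vehicle library 2, panobinostat library 2 or panobinostat library 4 (adjusted p = 0.0558 to 0.106), as well as without panobinostat libraries 3 and 4 together (0.113). Gart, which carries 3 of the following activities, had values of 6.98 to 7.64 with vehicle and 7.03 to 7.29 with panobinostat that overlapped (-0.09, 95% interval -0.41 to 0.24). Its exons overlap those of Gm15964 on the opposite strand over 1014 bases, and whether counting used strand is not given in the sources used here.

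Pfas, which makes formylglycinamidine ribonucleotide, had the largest decrease of the purine path. It measured 7.36, 7.55, 7.16 and 7.24 with vehicle and 6.37, 6.40, 6.40 and 6.64 with panobinostat, and fell by 0.88 (SE 0.11, adjusted p = 1.20e-04). Every panobinostat library was low, the fourth least so. Paics, which carries out a later pair of steps, was by level per length the fourth of the 34 genes with vehicle and the first with panobinostat (130 ± 11.4 and 97.2 ± 5.48 RPKM, the CPM per kilobase of transcript; SD, n = 4). Paics fell by 0.42 (SE 0.09, adjusted p = 0.00305), a call that quantile normalization removed (-0.06, adjusted p = 0.48). Adenylosuccinate lyase (Adsl) fell by 0.54 (SE 0.14, adjusted p = 0.00721), and without panobinostat libraries 3 and 4 together it no longer passed (-0.56, adjusted p = 0.0502). Atic, which closes the ring to IMP, fell by 0.82 (SE 0.17, adjusted p = 0.00205).

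Ppat (ENSMUSG00000029246, chr5:76913249-76951578, minus strand) and Paics (ENSMUSG00000029247, chr5:76951307-76967509, plus strand) lie head to head. Their start sites are 276 bases apart and their exons share 272 bases, so reads in that stretch cannot be assigned to either gene without strand. Their windows are printed because the divergent pair showed decreases of different size, and those of Impdh2 and Nme1 because these are the paired genes below whose windows hold CACGTG. The positions are chr5:76951052-76951351 for Paics, chr5:76951529-76951828 for Ppat, chr9:108560186-108560485 for Impdh2 (plus strand) and chr11:93968223-93968522 for Nme1 (minus strand), with capitals as above.
Paics: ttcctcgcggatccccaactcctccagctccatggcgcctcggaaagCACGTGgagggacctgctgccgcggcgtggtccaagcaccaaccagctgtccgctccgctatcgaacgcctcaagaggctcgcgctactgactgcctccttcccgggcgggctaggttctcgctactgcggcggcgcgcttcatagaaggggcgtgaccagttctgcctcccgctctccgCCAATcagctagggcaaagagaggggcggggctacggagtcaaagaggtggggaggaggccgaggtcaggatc
Ppat: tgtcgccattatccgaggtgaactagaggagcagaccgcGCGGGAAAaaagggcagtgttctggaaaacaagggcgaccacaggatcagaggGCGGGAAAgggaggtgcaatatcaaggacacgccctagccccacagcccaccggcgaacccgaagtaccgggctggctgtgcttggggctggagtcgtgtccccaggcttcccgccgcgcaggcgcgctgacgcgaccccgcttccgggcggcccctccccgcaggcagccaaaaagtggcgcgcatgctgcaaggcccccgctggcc
Impdh2: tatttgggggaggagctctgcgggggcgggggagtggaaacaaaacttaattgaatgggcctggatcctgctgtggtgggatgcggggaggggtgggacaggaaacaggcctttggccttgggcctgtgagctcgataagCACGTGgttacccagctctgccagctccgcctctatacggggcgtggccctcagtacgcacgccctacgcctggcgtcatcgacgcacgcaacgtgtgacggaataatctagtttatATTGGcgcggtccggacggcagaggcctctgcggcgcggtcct
Nme1: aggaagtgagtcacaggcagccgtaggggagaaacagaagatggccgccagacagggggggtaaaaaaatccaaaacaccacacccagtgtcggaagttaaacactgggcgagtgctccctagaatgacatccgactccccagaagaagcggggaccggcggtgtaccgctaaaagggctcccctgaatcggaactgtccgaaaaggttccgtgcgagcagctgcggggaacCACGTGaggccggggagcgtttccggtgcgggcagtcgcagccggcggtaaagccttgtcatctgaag
Paics holds CACGTG and CCAAT, and Ppat holds 2 E2F matches. Impdh2 holds CACGTG and a CCAAT match on the other strand (printed as ATTGG), and Nme1 holds CACGTG near its RefSeq start site. The start sites used for Impdh2 (chr9:108560436) and Nme1 (chr11:93968272) lie inside the gene bounds given below.

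Of the enzymes that lead from IMP to guanine nucleotides, IMP dehydrogenase 2 fell and its isoenzyme did not pass the test. Impdh2 (ENSMUSG00000062867, chr9:108560286-108565584) measured 7.81, 8.09, 7.74 and 8.39 with vehicle and 7.18, 7.07, 7.29 and 7.35 with panobinostat, and fell by 0.78 (SE 0.15, adjusted p = 0.00129). Impdh1 (ENSMUSG00000003500, chr6:29200434-29216364) measured 6.60, 6.88, 6.58 and 7.15 with vehicle and 6.81, 6.71, 6.92 and 6.72 with panobinostat. The panobinostat values of Impdh2 were all under the vehicle values, whereas those of Impdh1 lay within the vehicle range (-0.01, 95% interval -0.32 to 0.29). Impdh1 made up 23.7% ± 0.407 of the length-corrected sum of both with vehicle and 34.6% ± 2.07 with panobinostat (SD, n = 4). Exons of Impdh2 overlap those of Ndufaf3 over 48 bases. GMP synthetase (Gmps) fell by 0.51 (SE 0.08, adjusted p = 4.94e-04), while Adss, which starts the branch to AMP, had a change of -0.20 (95% interval -0.42 to 0.01, adjusted p = 0.0926) with groups that did not overlap. Adss was called lower with library weights (-0.30, adjusted p = 0.00581), with median centring (-0.32, 0.014) and without vehicle library 4 (-0.25, 0.0315). Its change was nearer to none with quantile normalization (-0.06, adjusted p = 0.584) and with read totals as the scale (-0.08, 0.485).

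The salvage enzymes, which recover free bases, showed no call. Hprt measured 6.43, 6.33, 6.41 and 6.35 with vehicle and 6.34, 6.36, 6.44 and 6.31 with panobinostat (-0.02, 95% interval -0.19 to 0.15). Its SD within each group was 0.05 and its groups overlapped throughout. Aprt measured 5.73, 5.80, 6.12 and 6.48 with vehicle and 5.85, 5.79, 5.96 and 5.76 with panobinostat (-0.20, 95% interval -0.56 to 0.16). Here the vehicle libraries differed among themselves more than the groups did.

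Pyrimidine synthesis was lower in 3 of 4 genes (75%, against 32.4% of all genes tested). The median change was -0.94, and 2 of the 4 were more than halved. The largest decrease was in Ctps (ENSMUSG00000028633, chr4:120539868-120570276, minus strand), which makes CTP from UTP. It measured 7.45, 7.62, 7.46 and 7.89 with vehicle and 6.21, 6.08, 6.15 and 6.22 with panobinostat, a fall of 1.44 (SE 0.11, adjusted p = 1.07e-05) to 36.8% of the vehicle level. Every panobinostat library lay far under the lowest vehicle library. Cad (ENSMUSG00000013629, chr5:31054780-31078479, plus strand), the multifunctional protein that starts the pathway, measured 7.78, 8.13, 7.66 and 8.25 with vehicle and 6.50, 6.52, 6.64 and 6.90 with panobinostat. It fell by 1.31 (SE 0.15, adjusted p = 7.79e-05) to 40.2%, again with a wide gap between the groups. Dhodh, the mitochondrial dehydrogenase of the pathway, measured 4.60, 4.83, 4.65 and 5.13 with vehicle and 4.40, 4.54, 4.55 and 4.55 with panobinostat. Its groups were apart but adjoining, and its change of -0.29 did not pass (95% interval -0.60 to 0.02, adjusted p = 0.0898). Dhodh was called lower with quantile normalization (-0.41, adjusted p = 0.0155) and with median centring (-0.41, 0.0219). With read totals as the scale its change was -0.17 (adjusted p = 0.23). Umps, which makes UMP, fell by 0.57 (SE 0.14, adjusted p = 0.00661).

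Nucleoside diphosphate kinases, which make the triphosphates, were both lower, as were 32.4% of all genes tested. Nme1 (ENSMUSG00000037601, chr11:93956979-93968521) measured 7.21, 7.56, 7.45 and 7.83 with vehicle and 6.42, 6.42, 6.61 and 6.68 with panobinostat, a fall of 0.98 (SE 0.14, adjusted p = 2.18e-04). Its neighbour Nme2 (ENSMUSG00000020857, chr11:93949814-93956259) measured 5.89, 6.19, 5.98 and 6.41 with vehicle and 5.65, 5.34, 5.85 and 5.57 with panobinostat, a fall of 0.52 (SE 0.15, adjusted p = 0.012). Nme1 stood well apart and Nme2 only just. The coding sequences of the 2 genes are similar, so the split of reads between them is uncertain.

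Deoxynucleotide synthesis had 5 of 10 genes at less than 50% of the vehicle level, the same share as pyrimidine synthesis (2 of 4), against 2216 of the 16157 genes tested. Of the 10, 8 were lower (80%, against 32.4% of all genes tested) and 2 (Rrm2b and Tk2) had no call. The median change of the 10 was -0.92. Their summed level was 1323 to 1747 CPM with vehicle and 590 to 669 CPM with panobinostat. Rrm2 (ENSMUSG00000020649, chr12:24708241-24714146, plus strand) encodes the small subunit of ribonucleotide reductase that is made in S phase. It measured 8.35, 8.56, 8.26 and 8.72 with vehicle and 6.42, 6.17, 6.35 and 6.46 with panobinostat. It fell by 2.12 (SE 0.12, adjusted p = 4.74e-06) to 23.0% of the vehicle level, the largest change of the 34 genes. By length-corrected level it went from the first place among them (163 ± 23.6 RPKM) to the eleventh (37.3 ± 3.25 RPKM; SD, n = 4). Its promoter window, chr12:24708004-24708303, is shown as that of the gene with the largest decrease, with capitals as above.
Rrm2: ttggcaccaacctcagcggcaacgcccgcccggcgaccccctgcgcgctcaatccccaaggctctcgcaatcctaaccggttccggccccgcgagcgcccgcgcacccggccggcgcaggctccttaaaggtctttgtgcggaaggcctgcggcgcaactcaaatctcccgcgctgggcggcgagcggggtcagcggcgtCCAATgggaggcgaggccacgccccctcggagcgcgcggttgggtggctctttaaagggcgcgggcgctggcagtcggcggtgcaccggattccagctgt
The capitals mark a CCAAT upstream of the start. The window also holds the GC box GGGCGG, searched as well and left in lower case, and neither CACGTG nor any of the E2F spellings searched.

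Rrm1 (ENSMUSG00000030978, chr7:102441695-102469771, plus strand), the large subunit of the same enzyme, measured 8.48, 8.63, 8.43 and 8.77 with vehicle and 7.15, 7.09, 7.14 and 7.28 with panobinostat. It fell by 1.41 (SE 0.10, adjusted p = 7.97e-06) to 37.6%, less than Rrm2. Rrm2b (ENSMUSG00000022292, chr15:37923952-37961318, minus strand), the small subunit known as a p53 target that serves outside S phase, measured 4.57, 4.38, 3.99 and 4.07 with vehicle and 4.54, 4.49, 4.57 and 4.47 with panobinostat. It did not pass (0.26, 95% interval -0.07 to 0.60, adjusted p = 0.151), vehicle library 1 being as high as the panobinostat libraries. Without that library Rrm2b was called higher (0.37, adjusted p = 0.0452). With quantile normalization its change was 0.08 (adjusted p = 0.596). Rrm2b was the lowest of the 34 genes per length in both groups (4.23 ± 0.804 and 5.01 ± 0.160 RPKM; SD, n = 4), and it made up 2.57% ± 0.619 of the small subunit RNA with vehicle and 11.9% ± 0.973 with panobinostat.

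Thymidine kinases split in the same manner. Tk1 (ENSMUSG00000025574, chr11:117815526-117826092, minus strand), the cytosolic kinase of dividing cells, measured 5.96, 6.14, 5.79 and 5.83 with vehicle and 4.77, 4.89, 4.77 and 4.90 with panobinostat, a fall of 1.10 (SE 0.11, adjusted p = 3.07e-05). Tk2 (ENSMUSG00000035824, chr8:104226685-104248558, minus strand), the mitochondrial kinase, measured 4.91, 4.69, 4.47 and 4.91 with vehicle and 5.18, 4.97, 4.95 and 5.19 with panobinostat. Tk1 was low in every panobinostat library, and Tk2 was higher in each of them than in any vehicle library, by a small margin. The Tk2 change of 0.33 was just short of the threshold (95% interval 0.03 to 0.63, adjusted p = 0.0534) and was past it with read totals as the scale (0.45, adjusted p = 0.0111) and without vehicle library 1 (0.39, 0.0405) or 4 (0.38, 0.0324). With median centring the Tk2 change was 0.21 (adjusted p = 0.144). Exons of Tk1 overlap those of Afmid over 83 bases.

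The other 5 enzymes of deoxynucleotide metabolism were all lower. Dut, which removes dUTP, fell by 1.35 (SE 0.14, adjusted p = 4.54e-05), from 7.78 to 8.45 with vehicle to 6.64 to 6.87 with panobinostat. Thymidylate synthase (Tyms) fell by 1.20 (SE 0.10, adjusted p = 1.24e-05), from 6.43 to 6.69 to 5.22 to 5.46. Thymidylate kinase (Dtymk) fell by 0.74 (SE 0.11, adjusted p = 2.79e-04). The dCTP pyrophosphatase Dctpp1 fell by 0.72 (SE 0.16, adjusted p = 0.00305) and deoxycytidine kinase (Dck) by 0.68 (SE 0.11, adjusted p = 6.80e-04). None of these 5 genes had overlapping groups, and the proliferation markers, whose values are given above, were lower in the same libraries.

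**Figure D2:**
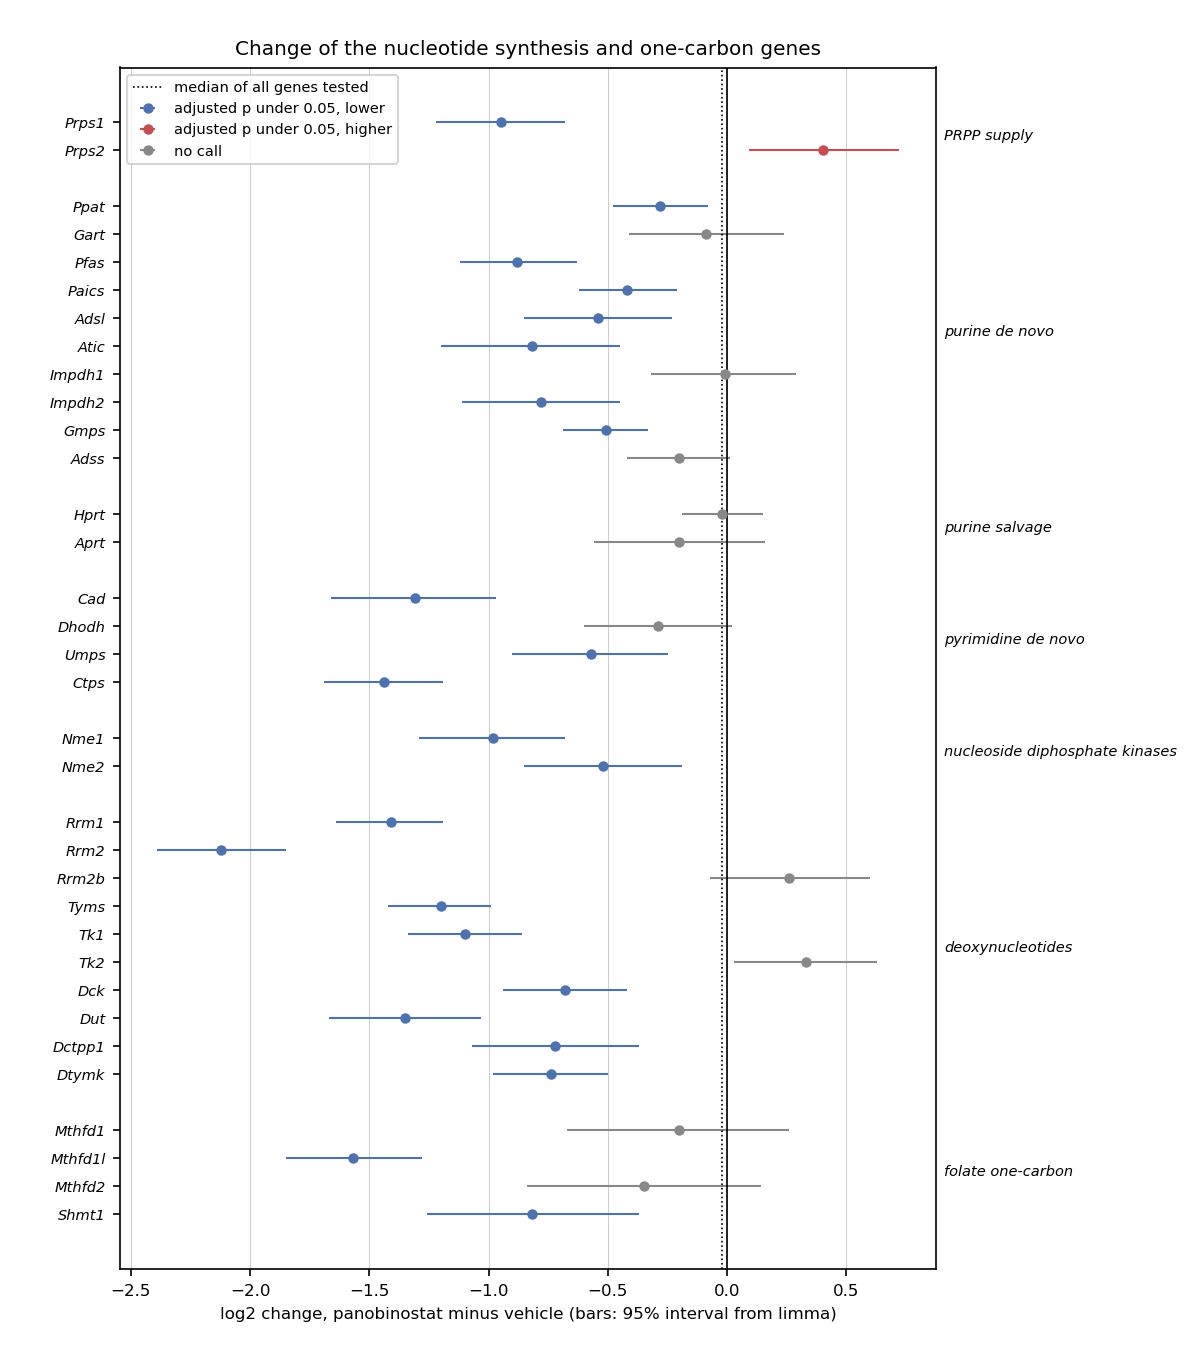
Points are log2 changes (panobinostat minus vehicle, n = 4 in each group) of the 34 genes by role, with 95% intervals from limma, in blue where lower and red where higher at an adjusted p under 0.05 and grey without a call. Most intervals lie left of both 0 and the median of all genes (-0.02), Rrm2 lies farthest left at -2.12, and Prps2 is the 1 red point.

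In the folate cycle, 2 of 4 genes were lower (50%, against 32.4% of all genes tested), with a median change of -0.58. Mthfd1l (ENSMUSG00000040675, chr10:3973118-4167081, plus strand), which releases formate in mitochondria, measured 6.02, 6.33, 5.85 and 6.29 with vehicle and 4.62, 4.52, 4.48 and 4.60 with panobinostat. It fell by 1.57 (SE 0.13, adjusted p = 1.28e-05) to 33.7%, the second largest decrease among the 34. Mthfd1 (ENSMUSG00000021048, chr12:76255298-76319803, plus strand), which takes formate back into the folate pool in the cytosol, measured 5.88, 6.20, 5.99 and 6.67 with vehicle and 5.77, 5.66, 6.11 and 6.38 with panobinostat. Those groups overlapped (-0.20, 95% interval -0.67 to 0.26, adjusted p = 0.411). Mthfd2 (ENSMUSG00000005667, chr6:83305691-83325908, minus strand), the mitochondrial dehydrogenase and cyclohydrolase, measured 5.86, 6.75, 6.47 and 6.79 with vehicle and 5.73, 6.10, 6.31 and 6.33 with panobinostat. Vehicle library 1 lay within the panobinostat range. The change of -0.35 did not pass (95% interval -0.84 to 0.14, adjusted p = 0.186), and without vehicle library 1 it did (-0.55, adjusted p = 0.0159). With quantile normalization it was -0.19 (adjusted p = 0.413).

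Shmt1, the cytosolic enzyme that takes a one-carbon unit from serine, measured 6.90, 7.03, 6.68 and 7.26 with vehicle and 5.80, 5.92, 6.21 and 6.68 with panobinostat. It fell by 0.82 (SE 0.20, adjusted p = 0.00562), and it was the 1 called gene of the 34 whose groups overlapped, panobinostat library 4 being as high as the lowest vehicle library. Mthfd1 and Shmt1 were both highest among panobinostat libraries in library 4, then in library 3. Those libraries also had the highest sums of liver markers, 843 CPM in library 3 and 7614 CPM in library 4, against at most 151 CPM in the others. Adrenal cortex markers were highest there as well (1004 and 2726 CPM). Without libraries 3 and 4 the change was -1.11 for Shmt1 (adjusted p = 0.0023) and -0.47 for Mthfd1 (adjusted p = 0.124). Exons of Shmt1 overlap those of Smcr8 over 184 bases.

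Isoenzymes and partner subunits were compared as 12 ratios within each library, so that the library scaling drops out. The test was a two-sided exact permutation test over 70 assignments of the libraries, whose smallest p is 0.0286, adjusted over the 12 ratios. In 9 ratios the groups did not overlap and the adjusted p was 0.0381. All 9 had the smallest possible p, so the test does not rank them. How often ratios of other gene pairs lie apart was not determined. Of single genes tested, 31.2% lay apart and lower with panobinostat and 28.5% apart and higher. The log2 ratio of Rrm2 to Rrm2b went from 4.22 ± 0.36 to 1.84 ± 0.13 (SD, n = 4), a difference of -2.38 (95% interval from the exact test -2.96 to -1.79). Per length this was 39.7 ± 9.75 Rrm2 transcripts for each Rrm2b with vehicle and 7.45 ± 0.696 with panobinostat. Rrm2 also fell relative to its partner Rrm1, by 0.71 (interval -0.86 to -0.56), from 1.70 ± 0.0601 to 1.04 ± 0.0583 transcripts of Rrm2 per Rrm1.

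In 4 further pairs the ratio moved toward the isoenzyme that was scarcer per length with vehicle. Tk1 against Tk2 went from 1.19 ± 0.25 to -0.24 ± 0.14 (difference -1.43, interval -1.86 to -1.01), and Prps1 against Prps2 from 1.42 ± 0.11 to 0.06 ± 0.22 (-1.36, interval -1.74 to -1.01). Impdh2 against Impdh1 went from 1.20 ± 0.03 to 0.43 ± 0.13 (-0.77, interval -0.87 to -0.53), and panobinostat library 4, at 0.63, stood above the other panobinostat libraries (0.36 to 0.37). Ctps against its isoenzyme Ctps2 went from 2.12 ± 0.22 to 1.11 ± 0.17 (-1.01, interval -1.46 to -0.62). Per length, Tk1, Prps1, Impdh2 and Ctps each remained above their isoenzyme with panobinostat, at 1.42 ± 0.139, 1.98 ± 0.280, 1.90 ± 0.184 and 2.70 ± 0.308 times its level. Nme1 against Nme2 went from 1.40 ± 0.07 to 0.93 ± 0.19 (-0.46, interval -0.70 to -0.22), although Nme1 was under Nme2 per length in both groups (0.838 ± 0.0378 and 0.611 ± 0.0804). That order depends on the transcript lengths used, 3181 bases for Nme1 and 1012 bases for Nme2.

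Of the folate pairs, the cytosolic and mitochondrial enzymes Mthfd1 and Mthfd1l differed most. Mthfd1 against Mthfd1l went from 0.06 ± 0.25 to 1.43 ± 0.33 (difference 1.36, interval 0.77 to 1.91), and Mthfd1l made up 45.7% ± 4.23 of their length-corrected sum with vehicle and 24.8% ± 4.17 with panobinostat. Mthfd2 against Mthfd2l, which are both mitochondrial, went from 1.95 ± 0.39 to 2.93 ± 0.30 (0.98, interval 0.12 to 1.76), and the adjusted p was 0.0762 without vehicle library 1 or panobinostat library 2, 3 or 4. For Shmt1 against its mitochondrial isoenzyme Shmt2 the difference was 0.15 (interval -0.34 to 0.73, exact permutation p = 0.514), both having fallen. Neither did Hprt against Aprt pass (0.18, interval -0.21 to 0.69, exact permutation p = 0.4), nor Adss against the muscle isoenzyme Adssl1 (-1.59, interval -3.25 to 0.25, exact permutation p = 0.0857). In the last pair, vehicle library 2 stood at 2.07 and the other vehicle libraries at 3.72 to 3.95, and without it the difference was -2.03 (adjusted p = 0.0343).

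**Figure D3:**
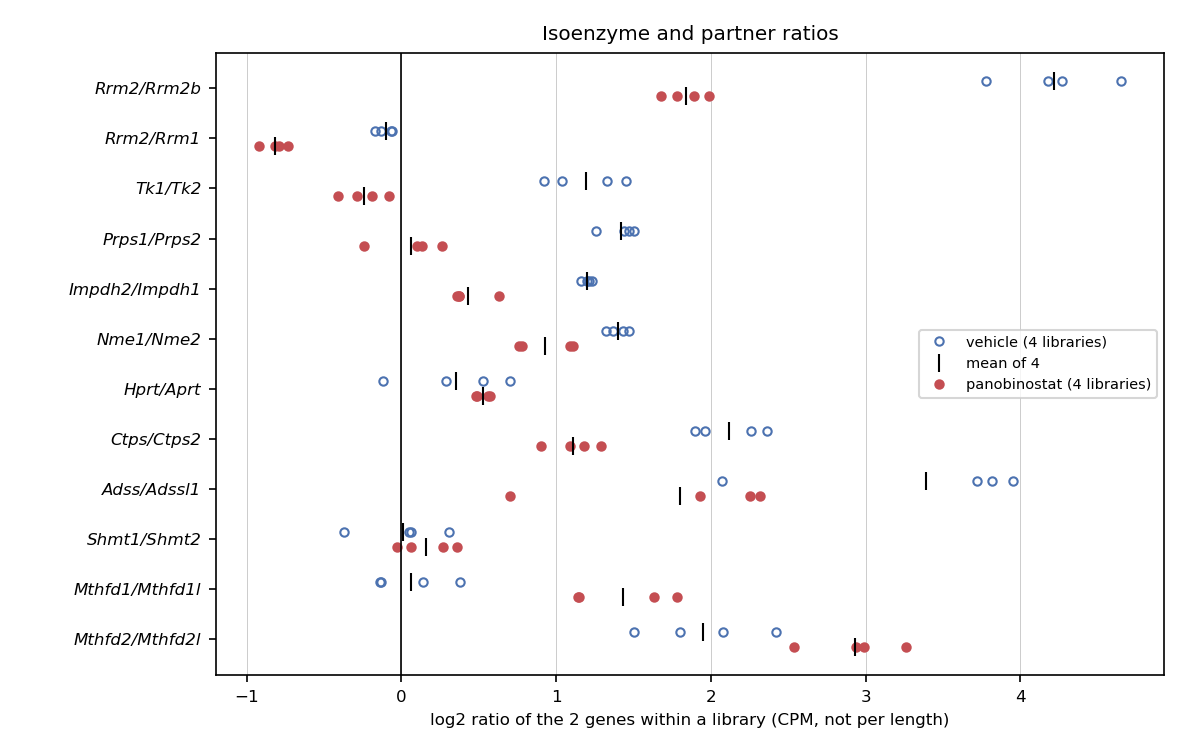
Each point is the log2 ratio of the CPM of 2 genes in 1 library (not per length), open for vehicle and filled for panobinostat, with vertical lines at the means of 4. The groups are apart in 9 of 12 pairs, by most in Rrm2/Rrm2b, and overlap in Hprt/Aprt, Adss/Adssl1 and Shmt1/Shmt2.

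Ordered by level per length with vehicle, Rrm2 (163 ± 23.6 RPKM) came first, then Dut (141 ± 29.0), Impdh2 (141 ± 29.6), Paics (130 ± 11.4) and Dtymk (113 ± 15.4; SD, n = 4). At the other end were Dhodh (13.8 ± 2.42), Tk2 (11.2 ± 1.59), Prps2 (11 ± 1.51) and Rrm2b (4.23 ± 0.804). Every gene overlapped in its 4 vehicle values with the next gene of this order, except Prps2 with Rrm2b, so that adjacent ranks are not distinct. With panobinostat the order opened with Paics (97.2 ± 5.48), Impdh2 (80.7 ± 6.97), Aprt (67.4 ± 4.20), Dtymk (67.3 ± 2.52) and Dctpp1 (66.4 ± 5.46). Tyms went from rank 22 to 30 and Cad from 20 to 27, while Impdh1 went from 18 to 9.

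**Figure D4:**
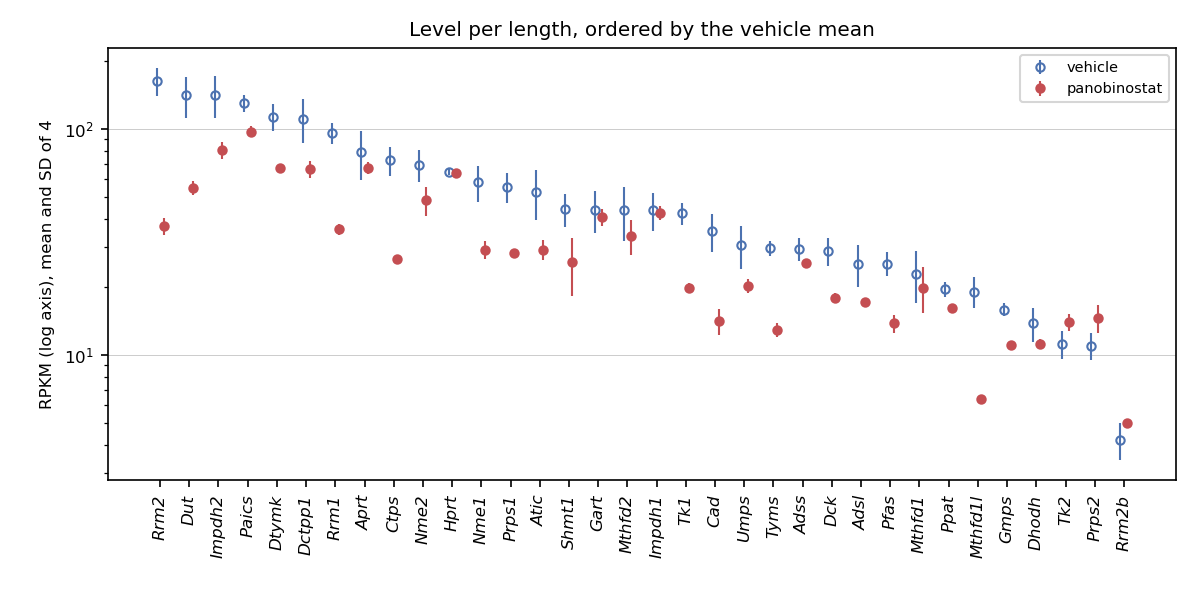
Mean and SD of 4 libraries of the level per length in RPKM (log axis) for the 34 genes, ordered from left to right by the vehicle mean. Vehicle means run from 163 (Rrm2) to 4.23 (Rrm2b), and the panobinostat mean is above the vehicle mean in Tk2, Prps2 and Rrm2b only.

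A RefSeq promoter window was matched for 31 of the 34 genes (none for Dhodh, Pfas and Rrm2b) and for 27025 genes in all, 11536 of them tested here. CACGTG was held by 6 of the 31 (19.4%: Atic, Dtymk, Impdh2, Nme1, Paics and Tyms), against 8.09% of all genes and 11.4% of genes tested. All 6 are among the 22 lower genes with a window, and 0 of the 9 others held it. CCAAT was in 12 of 31 (38.7%, against 42.6% of genes tested), and any of the 4 E2F spellings in 2, Ppat and Prps2 (6.45%, against 4.43%). The GC box GGGCGG was in 26 of 31 (83.9%, against 66.8%), with mean GC contents of 60.7% in these windows and 60.3% in those of genes tested. The difference between lower and other genes was not tested. A GC box and an E2F match can overlap in position and then count for both. A match describes letters in a window of 300 bases and is not a measured site.

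Other genes of nucleotide and folate metabolism were taken from a list of 66, of which 61 were tested, 3 were under the filter (Ftcd, Folr1 and Dpys) and 2 were not analysed here (Pnp and Nme3). Of the 61, 22 were lower (36.1%, against 32.4% of all genes tested) and 13 higher (21.3%, against 31.2%), and their median of -0.02 equals that of all genes tested. The largest decreases of their roles that are given here were in the folate carrier Slc19a1 (-1.37, SE 0.15), uridine-cytidine kinase Uck2 (-1.66, SE 0.18) and the nucleoside transporter Slc29a2 (-1.76, SE 0.15), with adjusted p-values of 1.67e-05 (Slc29a2) to 5.86e-05 (Slc19a1). Shmt2 fell by 0.96, Mthfd2l by 1.33 and Ctps2 by 0.43. The last call was lost without panobinostat libraries 3 and 4 (-0.38, adjusted p = 0.09).

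The genes with the largest called increase of their roles were of several kinds. Xanthine dehydrogenase (Xdh), an enzyme of purine degradation, rose by 2.28 (SE 0.50, adjusted p = 0.00328). Its vehicle libraries differed widely (5.31, 4.62, 2.82 and 2.99), while its panobinostat libraries lay at 6.10 to 6.33. Dihydropyrimidine dehydrogenase (Dpyd), the first enzyme of pyrimidine degradation, rose by 2.87 (SE 0.48, adjusted p = 6.45e-04). Samhd1, which degrades deoxynucleoside triphosphates, rose by 0.79 (SE 0.13), from 5.81 to 6.38 with vehicle to 6.68 to 6.96 with panobinostat. Adenosine deaminase (Ada) was also higher (1.27, SE 0.19, adjusted p = 3.69e-04). So was guanine deaminase (Gda; 1.82, SE 0.59, adjusted p = 0.0221), whose groups overlapped, vehicle library 1 being at 5.95. Lower or without a call among enzymes of breakdown were Ampd3, which deaminates AMP (-1.75), the nucleotidases Nt5c (-0.64) and Nt5m (-1.20), and Upp1 (-0.16, no call). Ada, Gda, Nt5c and Nt5m were chosen after their values were seen. In serine synthesis Phgdh rose by 1.68, from 1.87 to 3.10 to 3.73 to 4.47, while Psat1 fell by 0.82. Aldh1l1, a folate enzyme abundant in liver, had the largest rise, 4.27, with counts of 16 to 278 in the vehicle libraries and 347 to 3535 in the panobinostat libraries. Its panobinostat values were highest in libraries 4 and 3, as were the liver and adrenal cortex markers. Without both libraries the change was 3.02 (adjusted p = 0.0496). Among vehicle libraries Aldh1l1 was highest in 1 and 2 (3.62 and 1.42), as were the adipocyte markers (171 and 44.6 CPM). The source of this RNA was not tested. Dpyd was also highest in panobinostat libraries 4 and 3 (3.54, 3.87, 4.38 and 5.86 in libraries 1 to 4). Without panobinostat libraries 3 and 4 its change was 2.16 (adjusted p = 0.00275). Slc28a2 (2.51, adjusted p = 0.0227) and Adssl1 (1.39, adjusted p = 0.0427) lost their calls without any of several single libraries, to an adjusted p of at most 0.0642 for Slc28a2 and 0.112 for Adssl1. Adssl1 also lost its call with library weights (0.68, adjusted p = 0.253), quantile normalization (1.07, 0.0919), median centring (1.27, 0.0578) and no variance trend (1.39, 0.0555).

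**Figure D5:**
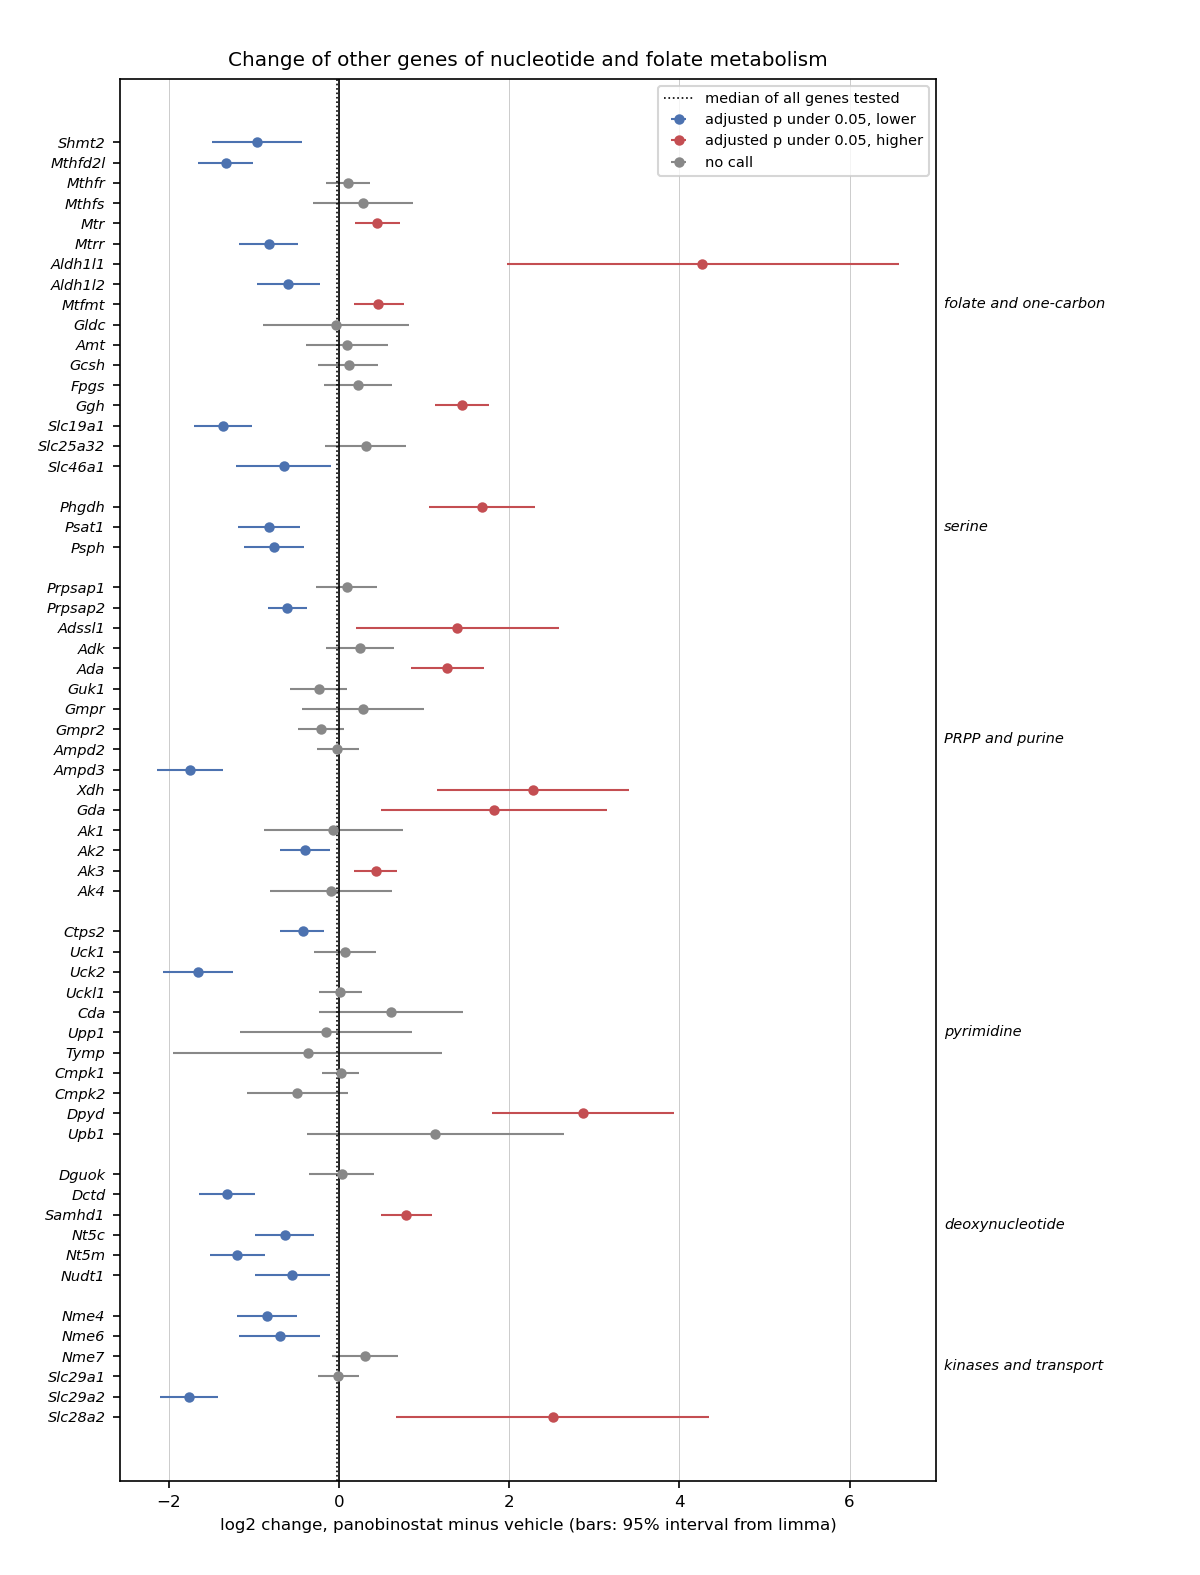
Points are log2 changes (panobinostat minus vehicle, n = 4 in each group) of 59 tested genes of the wider pathway with 95% intervals from limma, in blue where lower, red where higher and grey without a call. Of these, 20 are blue and 13 red, they scatter on both sides of the median of all genes (-0.02), and Aldh1l1 has the widest interval.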

How the data were processed

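RNA-seq of 8 tumours was used, 1 library per animal. Per the submitters' processing notes, CASAVA 1.8.2, TopHat2, HTSeq, limma and mm10 were involved, with no step named for each. Not given in the sources used here are the annotation, the authors' filter and any use of strand in counting. The authors deposited 1 table of log2 values, which have the form of log2 CPM with 0.5 added to each count: turned back into counts, 100% of values were whole within 0.001 read. Groups come from the labels, which name no cohort, batch or date, so treatment and any such difference cannot be told apart. Every vehicle animal has a lower number in its code than any panobinostat animal, and what the codes mark is not stated. Animals are numbered within a group in accession order, which pairs nothing. Of 17488 identifiers, 17228 had a GENCODE M21 symbol.

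The fit covered the 16157 genes that reached 1 CPM in 4 or more libraries. It used limma 3.58.1 under R 4.3.3, with lmFit, then a trended eBayes and no covariate, and tests were two-sided with Benjamini-Hochberg adjustment over all of them. RPKM divides the CPM by the longest principal transcript of GENCODE M21. Members, lists, pairs and alternatives were chosen with earlier results of these data known. All members are named, with every library's value for the largest change of each role, for genes against their role and for pairs whose ratio differed, beside some further members. Of the wider pathway, the largest called rise and fall of each role and the partners of pairs are named, and 2 genes of that list are not reported here. Alternatives were other filters (none, 5 CPM), variance models, library weights, 3 other scalings, a pseudocount of 1 CPM, voom weights on the recovered reads, stricter thresholds and leaving out libraries.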

Additional observations from a re-analysis of the deposited data

Results flagged for a closer look

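Of 124 groups of 4 libraries checked among the genes and ratios named, 7 had 1 library far from the other 3, with a gap above Dixon's 95% critical value for 4 samples. Chance alone marks about 1 in 20 such groups. For Prps2, vehicle library 3 was lowest at 5.02 (others 5.42 to 5.48), and panobinostat library 2 was highest at 6.03 (others 5.62 to 5.68). Pfas was highest in panobinostat library 4, at 6.64 (others 6.37 to 6.40), and Dhodh lowest in panobinostat library 1, at 4.40 (others 4.54 to 4.55). The Impdh2 to Impdh1 log2 ratio was highest in panobinostat library 4, at 0.63 (others 0.36 to 0.37). Adssl1 was highest in vehicle library 2, at 4.49 (others 2.38 to 2.52), and the Adss to Adssl1 log2 ratio was accordingly lowest there, at 2.07 (others 3.72 to 3.95).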

How the results depend on the processing

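The count of lower members was 21 to 25 of 34 under every alternative run except the test against a 1.5-fold change, which left 11. That test also left 0 members higher, 2186 genes lower and 2802 higher in all, and 8 lower and 6 higher of the wider pathway. The count of higher members was 2 with the filter of 5 CPM, with library weights and with scaling to read totals. It was 0 with median centring, an adjusted p under 0.01, and panobinostat libraries 3 and 4 left out together, and 0 to 3 with 1 library left out. Without panobinostat libraries 3 and 4, 7 genes of the wider pathway were higher. The other scalings moved the median change of all genes from -0.02 to -0.14 (median centring), -0.12 (quantile) and 0.10 (read totals). The split of lower against higher genes, 5241 against 5048 as reported, was then 6064 against 4515, 5969 against 4676 and 4612 against 5671. Genes without a call changed sign: Impdh1 was 0.05 with library weights, 0.21 with quantile normalization and 0.10 with read totals, Hprt 0.02, 0.14 and 0.10, Gart 0.17 with quantile normalization and 0.03 with read totals, and Aprt 0.01 with library weights. With 1 library left out, Impdh1 ranged from -0.09 to 0.10, Gart from -0.18 to 0.04, the difference in the Mthfd2 to Mthfd2l ratio from 0.83 to 1.14 and that in the Adss to Adssl1 ratio from -2.03 to -1.22. For the 34 members, 659 of 714 values kept their direction and side of the threshold, 29 lost a call, 12 gained one and 14 changed sign, and 12 members kept both throughout. For the 12 ratios, 127 of 132 values counted as kept. Without panobinostat libraries 3 and 4 the ratios were not judged by the threshold. There, a ratio counted as kept if its direction held and its difference moved by less than the larger of its group SDs. No paired analysis was possible because the labels give no shared replicate numbers. The cause of these shifts was not tested.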
